A study of Homo sapiens with 12 samples.

Results

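Serpins and coagulation factors were described in cells labelled HepG2 that had been given 1 of 3 hepatoprotective agents. The genes were chosen by symbol and not by value, with earlier results of these data known. Included were genes whose platform symbol is SERPIN, a clade letter and a number, together with 18 named coagulation factors, fibrinogen chains and plasma regulators, of which PROS1 was not analysed here. The rule gave 47 of the 13881 genes measured, read by 54 of the 15650 probes with a gene symbol. These were 30 serpins and 17 factors and regulators. They comprised 11 coagulation factors made in the liver, 13 serpins made mainly in the liver, the plasma proteins PLG and PROC, 4 factors made mainly by other cells, 11 intracellular clade B serpins and 6 other serpins. Each gene was represented by its brightest probe.

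Total RNA from the cells was labelled with Cy5 and read on 12 one-colour arrays. The 4 groups of 3 arrays were mock-treated control cells and cells given glycyrrhizin, silymarin or ursodeoxycholic acid, each at 25 µM. Glycyrrhizin is a saponin of liquorice root, silymarin a flavonolignan mixture from milk thistle and ursodeoxycholic acid a bile acid. All groups were cultures of the 1 line, a human hepatocellular carcinoma line grown in DMEM with fetal bovine serum, and the sources used here give no treatment time. Whether replicate arrays stem from separate cultures is not stated by the labels, so the p-values reflect array-to-array spread only, possibly of technical origin.

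Blood clotting runs through a cascade of serine proteases. Each circulates as an inactive precursor, mostly made by hepatocytes, and is cut by the one before it until thrombin converts fibrinogen to fibrin. Factor XII and factor XI start the contact route, tissue factor (F3) and factor VII start the other, and both meet at factor X. Serpins are proteins that trap a protease in an irreversible complex: antithrombin (SERPINC1) restrains thrombin and factor X, and plasma protease inhibitors such as alpha-1-antitrypsin (SERPINA1) are classical products of liver and of liver-derived lines. Clade B serpins lack a classical signal peptide, act mostly inside cells and protect them from stray proteases.

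Promoter sequence was searched without use of the array values, to set the liver-made genes beside the clade B serpins. Only the windows printed below were picked by their p-values on these arrays. RefSeq windows on GRCh38.p14 were found for 40 of the 47 genes (56 windows, several for some genes), and the 250 bases before each start were searched on both strands for 6 motifs. The AP-1 site TGANTCA was present in 6 of 16 clade B windows (37.5%), in 0 of 12 and 0 of 11 windows of the liver-made groups, and in 6.57% of all windows. The TATA box TATAAA was present in 5 of 16 clade B windows (31.2%) and 10.7% of all windows. The C/EBP core TTGCNNAA lay in 9 of 56 member windows (16.1%), among them 3 of 12 of liver-made factors (25%), and in 9.05% of all windows, and the nuclear receptor core AGGTCA in 10 of 56 (17.9%), among them 4 of 11 of liver-made serpins (36.4%), 2 of 12 of liver-made factors (16.7%) and 3 of 16 of clade B (18.8%), and in 12.1% of all windows. The GC box GGGCGG lay in 15 of 56 (26.8%) and 42.6%, and the HNF4 site CAAAGTCCA in 0 of 56 and 0.325%. Windows of 1 gene can overlap, and a match describes letters, not binding. The windows below are those of F12, F10 and SERPINB2, the members with the lowest p-values with ursodeoxycholic acid. Motif matches are in capitals, and each sequence runs 5′ to 3′ on the gene's strand and ends at the base before the start. F12 (chr5:177409565-177409814, minus strand) holds none of the motifs. F10 (chr13:113122549-113122798, plus strand) holds a GC box on the reverse strand. SERPINB2 (chr18:63887455-63887704, plus strand) holds a nuclear receptor core on the reverse strand from base -188, an AP-1 site from base -102 and a TATA box from base -30.
F12: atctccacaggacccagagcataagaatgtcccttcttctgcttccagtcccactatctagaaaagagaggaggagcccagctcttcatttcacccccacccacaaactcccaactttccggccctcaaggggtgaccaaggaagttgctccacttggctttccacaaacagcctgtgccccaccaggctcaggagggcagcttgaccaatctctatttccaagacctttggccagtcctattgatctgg
F10: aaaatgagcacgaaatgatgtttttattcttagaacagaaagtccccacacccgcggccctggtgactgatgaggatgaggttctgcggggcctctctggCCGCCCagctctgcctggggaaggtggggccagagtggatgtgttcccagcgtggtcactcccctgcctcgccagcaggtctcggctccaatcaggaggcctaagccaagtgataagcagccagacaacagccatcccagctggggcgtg
SERPINB2: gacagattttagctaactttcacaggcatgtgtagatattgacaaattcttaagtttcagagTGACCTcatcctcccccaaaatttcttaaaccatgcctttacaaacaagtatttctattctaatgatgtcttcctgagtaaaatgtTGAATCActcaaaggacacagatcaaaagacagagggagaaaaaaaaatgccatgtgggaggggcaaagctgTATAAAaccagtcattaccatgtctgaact

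The arrays carried values brought to nearly the same distribution before deposit, with array medians between 85.8 and 86.6 intensity units over all probes. Each array was correlated with the other 11 over all probes. The lowest median correlations were 0.908, for ursodeoxycholic acid replicate 1, and 0.911, for silymarin replicate 2, against 0.922 to 0.938 on the other arrays. No 2 arrays held identical values. Liver markers were not bright. All marker lists were drawn up with earlier results of these data known, and the hepatocyte list includes the members FGB and SERPINA1. Of 17 listed hepatocyte markers 11 were measured, with a median log2 intensity of 6.8 and 1 above the upper quartile of all genes (APOB, 8.89). The dimmest of them, APOH, lay at 3.55. ALB was not analysed here. Bright values lay among other markers. Of 11 neuroblast markers 6 lay above that quartile, with TH at 12.49 and STMN2 at 11.08 the brightest and ELAVL4 at 3.28 the dimmest. Of 10 mesenchymal markers 4 did, with VIM at 15.53 and TWIST1 at 13.32 the brightest and COL1A2 at 6.03 the dimmest. Leukocyte markers had 3 of 8 there (CD3D at 11.35), endothelial markers 2 of 9, megakaryocyte markers 2 of 6 and squamous markers 1 of 8. Above the median gene lay 9 of 11 neuroblast, 7 of 10 mesenchymal and 6 of 11 hepatocyte markers. How bright a probe is depends on its sequence as well as on its transcript, so the levels place probes and do not rank transcripts between genes. Apart from APOB, these hepatocyte markers were not above the upper quartile. Which cells they come from was not tested.

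**Figure D1:**
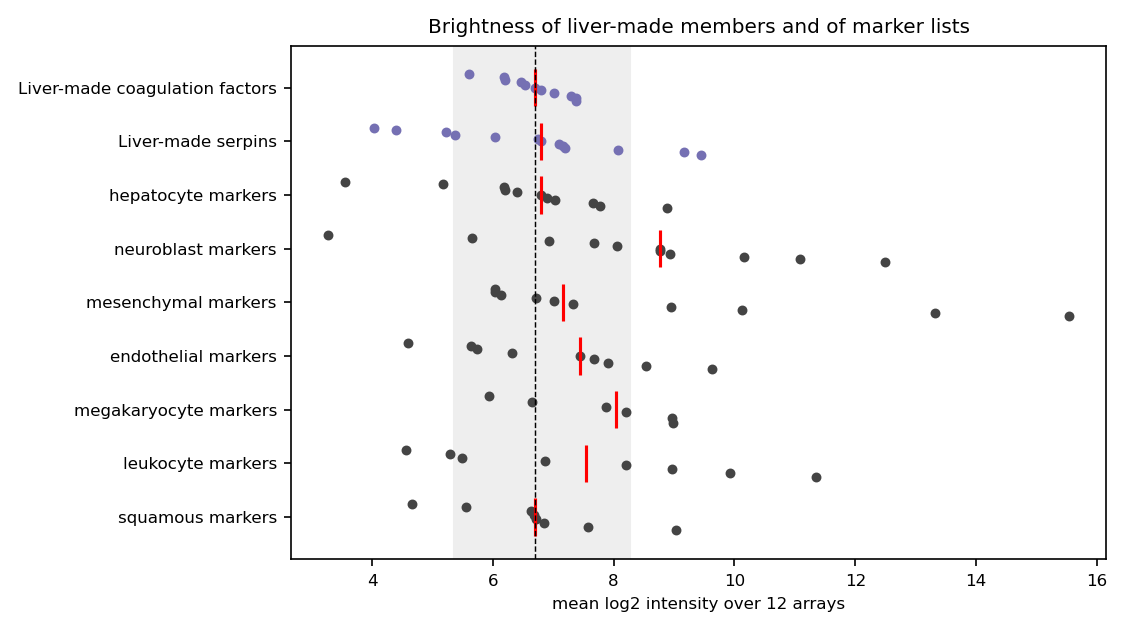
Mean log2 intensity over the 12 arrays (x axis) for each gene of the liver-made coagulation factors, the liver-made serpins and 7 marker lists (rows). Red bars are list medians, the dashed line is the median gene at 6.7 and the grey band runs between the quartiles at 5.35 and 8.27. All 11 liver-made factors lie inside the band, and the neuroblast list has the highest median at 8.77. The lists were chosen with earlier results of these data known, and the hepatocyte list shares FGB and SERPINA1 with the liver-made rows.

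The 11 liver-made coagulation factors, a group that leaves out PLG and PROC, all lay in the middle of the range. Their means over the 12 arrays ran from 5.6 to 7.37 log2 units with a median of 6.7, the same as the median gene, and 0 of 11 lay above the upper quartile of 8.27. Prothrombin (F2), the precursor of thrombin, averaged 7.29. The cofactor F5 averaged 7.37, as did F11, a protease of the contact route, and F10, where both routes meet, averaged 7.02. Fibrinogen is built from 3 chains in equal number, and FGA averaged 6.79, FGG 6.7 and FGB 6.2. F13B, the carrier subunit of the clot-linking enzyme, averaged 6.53, F7 6.46, F12 6.19 and F9, the factor missing in haemophilia B, 5.6. In bulk RNA, fewer cells of a type and less RNA per cell cannot be told apart.

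The liver-made serpins spread wider, from 4.04 to 9.44, with a median of 6.8 and 2 of 13 above the upper quartile. Those 2 were antithrombin SERPINC1 at 9.44 and SERPINA11, a poorly studied member of clade A, at 9.16. The complement inhibitor SERPING1 averaged 8.08. Near the median gene lay SERPINA5, the protein C inhibitor, at 7.2, pigment epithelium-derived factor SERPINF1 at 7.16, thyroxine-binding globulin SERPINA7 at 7.1, SERPINA1 at 6.8 and cortisol-binding globulin SERPINA6 at 6.75. Kallistatin SERPINA4 averaged 6.03, antiplasmin SERPINF2 5.38, heparin cofactor SERPIND1 5.22 and the protein Z-dependent inhibitor SERPINA10 4.39. The acute phase antichymotrypsin SERPINA3 was the dimmest of all members at 4.04. Its control arrays read 4.54, 1.87 and 3.61, so 1 control array lay near the bottom of the scale.

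The brightest members, SERPINE2, SERPINB1 and SERPINH1, were not liver-made. The liver-made SERPINC1 at 9.44 came next, and SERPINA11 at 9.16 also lay above SERPINB5. SERPINE2, a thrombin inhibitor that many cell types secrete (protease nexin), averaged 15.06 and was brighter than 99.5% of genes. Its group means ran from 15 to 15.16, and its arrays from 14.69 to 15.46. SERPINB1, the neutrophil elastase inhibitor, averaged 12.35 and SERPINH1, a collagen chaperone of the endoplasmic reticulum, 10.27. The clot-linking subunit F13A1, made mainly by cells of the blood lineage, averaged 9.18 and SERPINB5 (maspin) 8.18. Clade B as a whole had a median of 6.77, with SERPINB3 at 4.36 and SERPINB4 at 4.32 among the 5 dimmest members. The others of those 5 were SERPINA3, plasminogen PLG at 4.19 and SERPINA13 at 4.3, a symbol now listed as a pseudogene. Tissue factor F3, which starts clotting in damaged tissue, averaged 4.55, F8 4.81 and the platelet-tethering protein VWF 7.9.

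**Figure D2:**
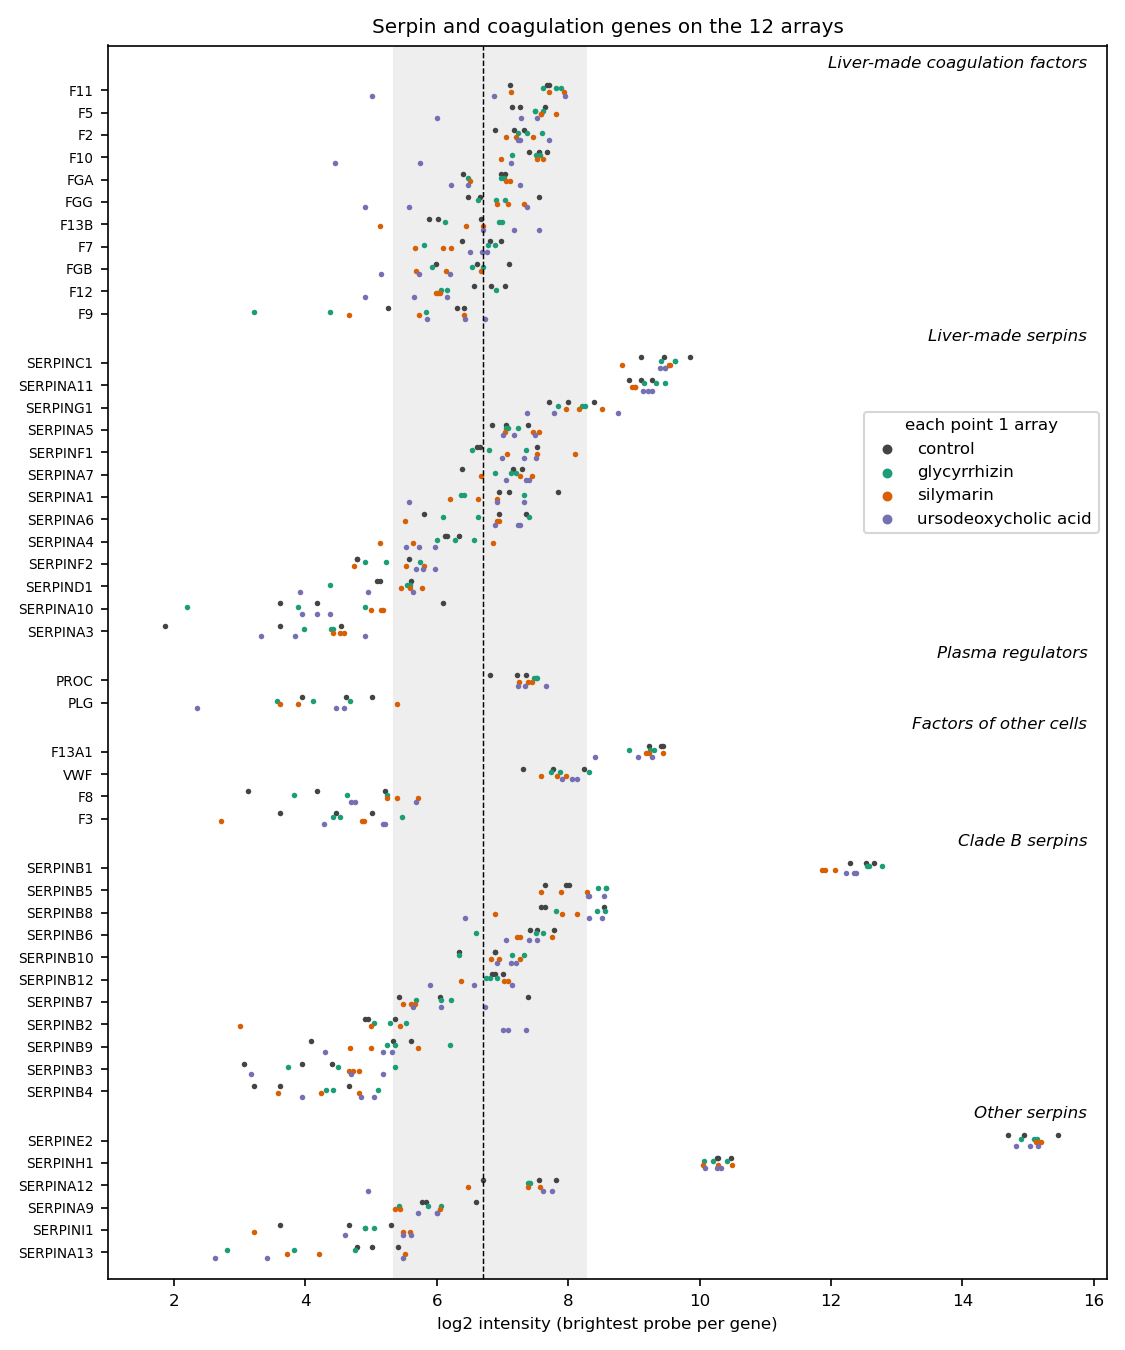
Log2 intensity of the brightest probe (x axis) of all 47 genes on the 12 arrays, grouped by role and sorted by mean, with each point 1 array coloured by group. The dashed line is the median gene at 6.7 and the grey band runs between the quartiles at 5.35 and 8.27. SERPINE2, SERPINB1 and SERPINH1 stand to the right of every liver-made gene.

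Several probes read 7 of the members, and for 3 of them the probes differed by at least 2 log2 units. SERPINC1 was read at 9.44 and 5.48, F5 at 7.37 and 4.76 and FGG at 6.7 and 4.59. With at least 1 agent, 5 of the 7 genes had probes of opposite sign against control. The probes of SERPINA1 lay at 6.8 and 4.9. The brighter probe differed from control by -0.59 with glycyrrhizin and -0.69 with ursodeoxycholic acid, and the dimmer by 0.29 and 0.57, while with silymarin both were lower, at -0.71 and -0.55. FGG differed by 0.22 on its brighter and -0.66 on its dimmer probe with silymarin. SERPINH1 differed in sign with all 3 agents, by small values of -0.12 and 0.18, -0.07 and 0.25, and -0.12 and 0.18. The direction for such a gene depended on the probe. Measurement spread was close to that of other genes. The median residual SD over the members was 0.48 log2 units, against 0.43 over all genes, and it narrowed with brightness over all genes from a median of 0.67 below the lower quartile to 0.24 above the upper one. Of the members, 11 lay below the lower quartile of 5.35 and 6 above the upper one.

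Glycyrrhizin was compared with control to ask which of these genes it affects. None of the 47 members passed an adjusted p of 0.05 (limma, Benjamini-Hochberg over all 13881 genes; 0.0072% of all genes passed, 1 gene that is not a member). With limma's variance trend and robust estimation, set together and called the variance trend setting below, the count of members was also 0, and 0.122% of all genes passed. At an unadjusted p under 0.05 stood 2 members (4.26%), against 5.71% of all genes, which is near the background. That count was 1 without glycyrrhizin replicate 1 or replicate 2, and at most 3 in the other fits that left out 1 array. The arrays of the groups did not overlap for 3 members (6.38%), against 12.7% of all genes.

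The 3 members with the lowest p-values were SERPINB5, F9 and PROC. SERPINB5 is a clade B serpin of epithelial cells. Listing arrays in replicate order, it measured 8.01, 7.96 and 7.64 in control and 8.46, 8.58 and 8.57 with glycyrrhizin. All 3 treated arrays lay above all controls, a log2 difference of 0.67 (SE 0.21; 95% interval 0.2 to 1.14; adjusted p = 0.673 by limma). F9 measured 6.42, 5.26 and 6.3 in control and 4.37, 3.22 and 5.83 with glycyrrhizin. The groups overlapped, and the difference of -1.52 (SE 0.64, adjusted p = 0.815 by limma) became -0.9 without glycyrrhizin replicate 2. PROC, the precursor of the anticoagulant protease protein C, measured 7.22, 7.35 and 6.81 in control and 7.51, 7.48 and 7.52 with glycyrrhizin, a difference of 0.38 (SE 0.2, adjusted p = 0.883 by limma) that was 0.22 without control replicate 3.

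By role, the liver-made factors had with glycyrrhizin a median difference of -0.04 (5 higher and 6 lower of 11) and the liver-made serpins with 0.07 (9 higher and 4 lower of 13). Clade B serpins had a median of 0.22, with 8 of 11 higher. The median over all genes was 0.02. Without 1 array of either group the medians ran from -0.15 to 0.09 for the factors, -0.09 to 0.11 for the liver-made serpins and 0.09 to 0.34 for clade B. None of the roles held a member past the adjusted threshold.

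Silymarin was set against control in the same fit. None of the 47 members passed the adjusted threshold (limma; 0% of all genes passed), and 0 passed with the variance trend setting (0.0288% of all genes). At an unadjusted p under 0.05 stood 4 members (8.51%; 5.24% of all genes), of which SERPINB1, F12 and F7 were lower and F8 was higher. The arrays did not overlap for 6 members (12.8%; 10.8% of all genes). SERPINB1 measured 12.53, 12.65 and 12.29 in control and 11.91, 12.06 and 11.86 with silymarin. Its treated arrays lay below all controls, by a log2 difference of -0.55 (SE 0.17; 95% interval -0.93 to -0.17; adjusted p = 0.836 by limma). F12 measured 7.04, 6.57 and 6.83 in control and 5.98, 6.05 and 6.02 with silymarin, again with no overlap, a difference of -0.8 (SE 0.32, adjusted p = 0.931 by limma).

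F7, the protease that pairs with tissue factor, measured 6.97, 6.81 and 6.38 in control and 5.67, 6.09 and 6.22 with silymarin. The groups were apart by a narrow gap, and the difference was -0.73 (SE 0.3, adjusted p = 0.931 by limma). F8, the cofactor missing in haemophilia A, was dim, at 4.18, 3.13 and 5.21 in control and 5.4, 5.72 and 5.24 with silymarin. Its difference of 1.28 (SE 0.51, adjusted p = 0.931 by limma) was 0.76 without control replicate 2. The median difference was -0.09 over the liver-made factors (5 higher, 6 lower), 0.19 over the liver-made serpins (8 higher, 5 lower) and -0.08 over clade B (5 higher, 6 lower), and 0.02 over all genes. Without 1 array of either group these ran from -0.18 to 0.03, 0.04 to 0.37 and -0.11 to 0.07.

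With ursodeoxycholic acid the median size of the members' differences from control was 0.43 log2 units, against 0.23 with glycyrrhizin and 0.24 with silymarin, and 0.25, 0.23 and 0.24 over all genes. None of the members passed the adjusted threshold (limma; 0% of all genes passed), and 0 passed with the variance trend setting (0.0432% of all genes). At an unadjusted p under 0.05 stood 7 members (14.9%; 5.55% of all genes). SERPINB2, SERPINB5, SERPINF2 and F13B were higher, and F12, F10 and FGB were lower. The count was 4 without glycyrrhizin replicate 2, which enters through the shared spread, and between 5 and 9 without any 1 of the ursodeoxycholic acid arrays. The arrays did not overlap for 8 members (17%; 9.5% of all genes). No test compared these shares with the background.

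SERPINB2, the plasminogen activator inhibitor of clade B, differed most from control. It measured 5.37, 4.95 and 4.91 in control and 7.09, 7 and 7.36 with ursodeoxycholic acid. With glycyrrhizin it read 5.53, 5.29 and 5.04, and with silymarin 5.44, 3.01 and 5. All 3 ursodeoxycholic acid arrays stood above the other 9, at a mean of 7.15 ± 0.18 (SD, n = 3) against 5.07 ± 0.25 in control. The log2 difference was 2.08 (SE 0.5; 95% interval 0.97 to 3.18), or 4.22-fold, with an adjusted p of 0.532 by limma. With an offset of 50 added to the intensities the difference was 1.2 and the adjusted p 0.0397 by limma. The share of all genes that passed with that offset is not given here. Silymarin replicate 2, the array at 3.01, is one of the 2 with the lowest correlations.

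F12, which starts the contact route, was lower with ursodeoxycholic acid at 4.9, 6.15 and 5.65, all below the lowest control at 6.57. The difference was -1.25 (SE 0.32; 95% interval -1.96 to -0.53; 2.37-fold; adjusted p = 0.603 by limma). F10 measured 7.55, 7.41 and 7.67 in control and 4.45, 5.75 and 7.13 with ursodeoxycholic acid. The 3 treated arrays were all lower than control but spanned the range from 4.45 to 7.13, and the difference of -1.76 (SE 0.52, adjusted p = 0.723 by limma) rested on which of them were used. It was -1.1 without replicate 1 and -2.44 without replicate 3, the latter with an adjusted p of 0.0462 by limma. The share of all genes that passed without replicate 3 is not given here. With glycyrrhizin F10 read 7.15, 7.51 and 7.57 and with silymarin 7.61, 6.97 and 7.52, close to control.

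FGB, the beta chain of fibrinogen, measured 5.98, 6.61 and 7.1 in control and 5.73, 5.15 and 6.2 with ursodeoxycholic acid. The groups overlapped (difference -0.87, SE 0.38, adjusted p = 0.893 by limma). F13B measured 5.88, 6.02 and 6.67 in control and 7.55, 7.18 and 6.71 with the bile acid, with the groups just apart (0.96, SE 0.43, adjusted p = 0.893 by limma). SERPINF2, the main inhibitor of plasmin, read 4.78, 5.58 and 4.79 in control and 5.69, 5.79 and 5.97 after treatment (0.77, SE 0.33, adjusted p = 0.893 by limma). SERPINB5 read 8.3, 8.31 and 8.55, above all controls (0.52, SE 0.21, adjusted p = 0.892 by limma).

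**Figure D3:**
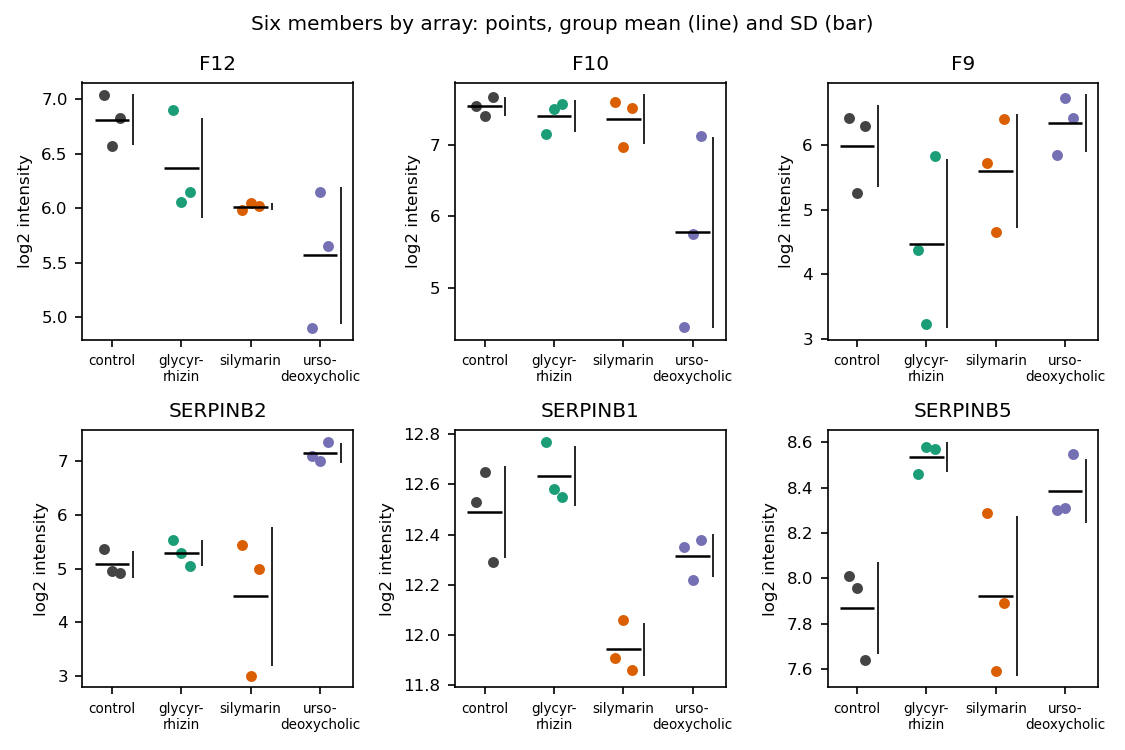
Log2 intensity (y axis, a separate range in each panel that does not start at 0) of F12, F10, F9, SERPINB2, SERPINB1 and SERPINB5 in the 4 groups. Points are single arrays, lines group means and bars 1 SD (n = 3). The SERPINB2 panel shows the 3 ursodeoxycholic acid arrays between 7 and 7.36, above the other 9, and the F10 panel shows the spread of the ursodeoxycholic acid arrays from 4.45 to 7.13.

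As a group, 8 of the 11 liver-made factors were lower with ursodeoxycholic acid and 3 higher, with a median difference of -0.42 and a range from -1.76 to 0.96. Over all genes the median was 0.02. The median over these factors was -0.08 without ursodeoxycholic acid replicate 1 (7 of 11 lower), -0.43 without replicate 2 (6 of 11 lower) and -0.71 without replicate 3 (8 of 11 lower), so its size rested largely on replicate 1. The median size of the difference was 0.87 for these factors, or 0.59 without replicate 1, and 0.25 for all genes. The liver-made serpins had a median of 0.11 (7 higher, 6 lower), which ran from 0.02 to 0.24 without 1 array of either group. Clade B had a median of -0.08 (5 higher, 6 lower), which ran from -0.05 to 0.46 without 1 array of either group. It stayed negative only without ursodeoxycholic acid replicate 3 and was positive without any other single array. Within the treated group the arrays differed from each other for these factors. On replicate 1, the array with the lowest correlation of the 12, 3 of 11 factors (27.3%) were more than 1 log2 unit below the mean of the other 2 arrays, against 9.76% of all genes, and their median deviation was -0.56 where that of all genes was 0.12. There F11 deviated by -2.4, F10 by -1.99 and F5 by -1.4. On replicate 3 the median deviation was 0.76, with F10 2.03, F11 2.01 and FGG 2.13 above the other 2 arrays, and on replicate 2 FGG deviated by -1.57. Accordingly F11 read 5.01, 6.87 and 7.95 and FGG 5.57, 4.9 and 7.37 with ursodeoxycholic acid, against 7.12 to 7.71 and 6.48 to 7.55 in control. The part of array quality in these differences was not tested.

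**Figure D4:**
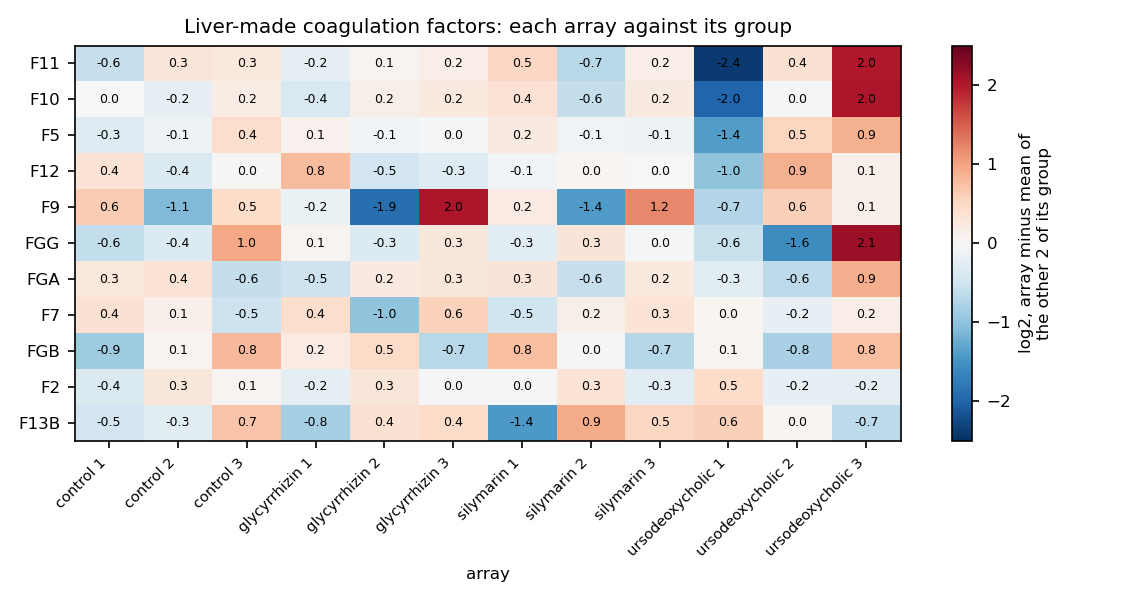
Each cell is the log2 value of a liver-made coagulation factor (rows) on 1 array (columns) minus the mean of the other 2 arrays of its group, blue where lower and red where higher. Ursodeoxycholic acid replicate 1 is lower for F11 and F10 (-2.4 and -1.99) and replicate 3 is higher for F10, F11 and FGG (2.03, 2.01 and 2.13).

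The mean of the 3 agents was compared with control to ask whether they moved genes together. None of the 47 members passed the adjusted threshold (limma; 0% of all genes passed) or passed with the variance trend setting (0.0216% of all genes), and 2 members stood at an unadjusted p under 0.05 (4.26%; 4.56% of all genes). That count was 4 without control replicate 1, silymarin replicate 2 or ursodeoxycholic acid replicate 1, and 1 without glycyrrhizin replicate 2. F12 was one of them. It lay below all controls on 8 of the 9 treated arrays, with glycyrrhizin at 6.9, 6.06 and 6.15. Its means were 6.81 ± 0.24 in control, 6.37 ± 0.46 with glycyrrhizin, 6.02 ± 0.04 with silymarin and 5.57 ± 0.63 with ursodeoxycholic acid (SD, n = 3). The mean difference was -0.83 (SE 0.26; 95% interval -1.41 to -0.25; adjusted p = 0.958 by limma). These 3 comparisons share the control arrays. SERPINB5 was the other, with 7 of 9 treated arrays above all controls and a mean difference of 0.42 (SE 0.17, adjusted p = 0.997 by limma). SERPINB5 means were 7.87 in control, 8.54 with glycyrrhizin, 7.92 with silymarin and 8.39 with ursodeoxycholic acid. With silymarin, 1 of its 3 arrays lay above all controls and 1 below. The third lowest p was that of F8, at 0.85 (SE 0.42, adjusted p = 0.997 by limma), which was 0.33 without control replicate 2 and 1.37 without control replicate 3. For no member did all 9 treated arrays lie on one side of the 3 controls, as was so for 0.792% of all genes.

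**Figure D5:**
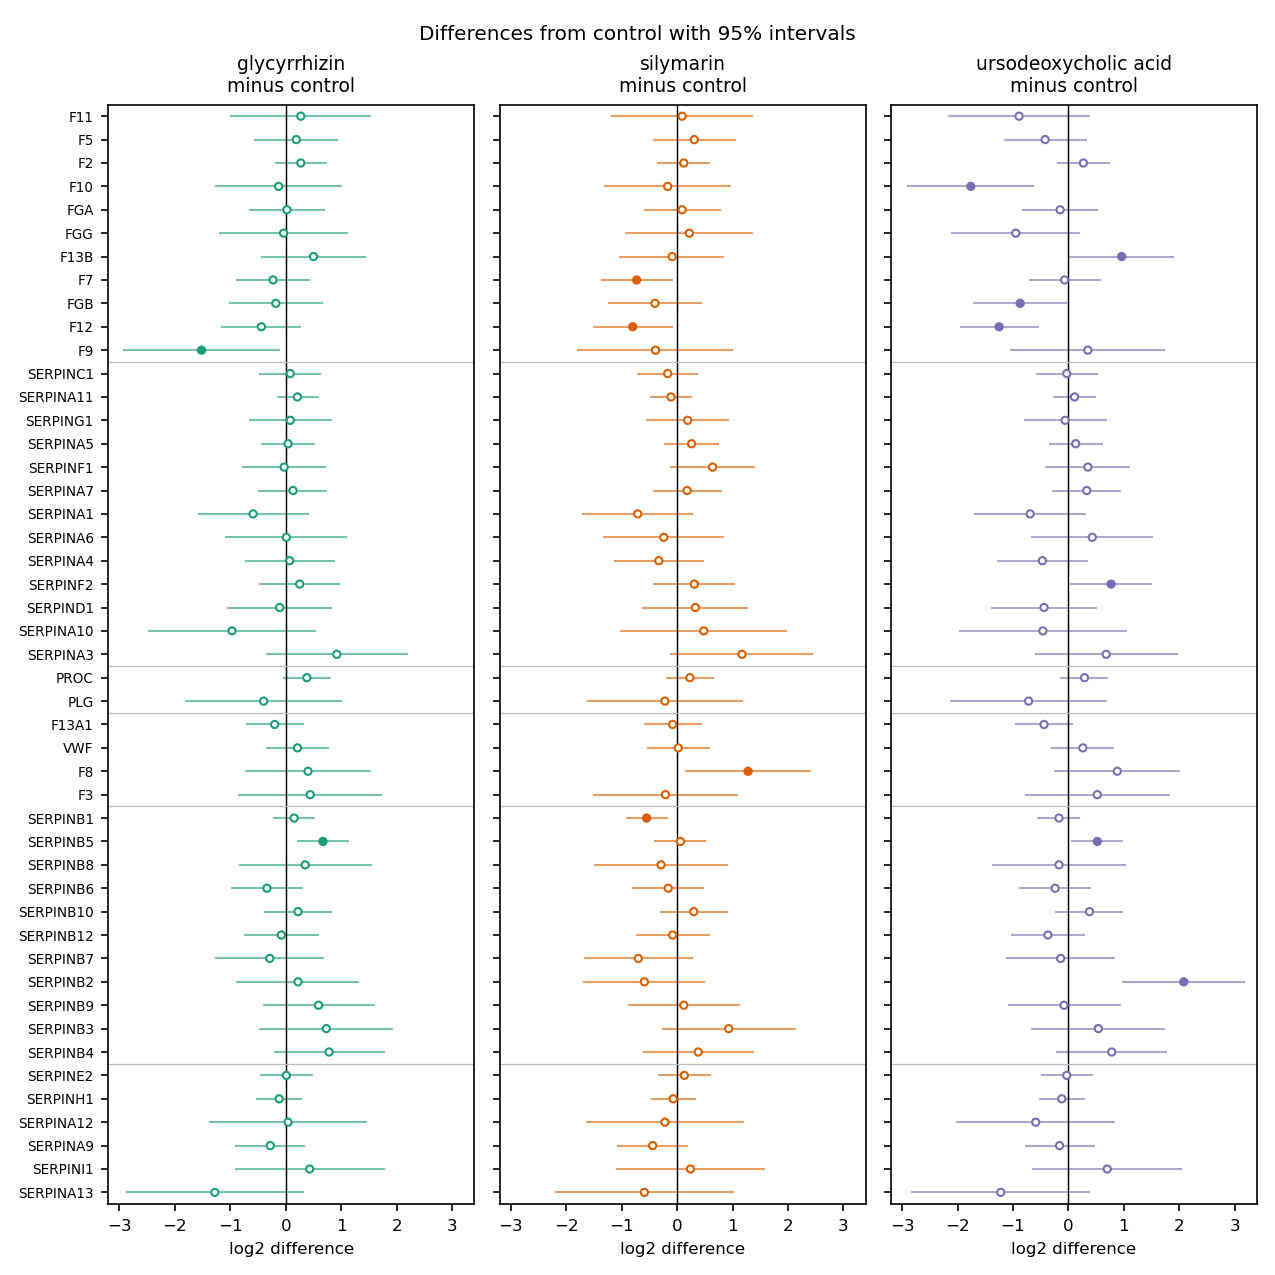
Log2 difference from control (x axis) of each of the 47 genes (rows, by role) for each agent, with 95% intervals from limma. Filled points have an unadjusted p under 0.05 (2 with glycyrrhizin, 4 with silymarin, 7 with ursodeoxycholic acid), and 0 passed the adjusted threshold.

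The agents were also compared with each other at the same 25 µM. Glycyrrhizin and silymarin differed for 0 of 47 members by the adjusted p (limma; 0.0504% of all genes passed) and for 2 by the unadjusted p (4.26%; 9.86% of all genes). The latter count was 5 without glycyrrhizin replicate 3 and 4 without silymarin replicate 1. The arrays did not overlap for 8 members (17%; 18.2% of all genes). SERPINB1 was higher with glycyrrhizin, at 12.77, 12.58 and 12.55 against 11.91, 12.06 and 11.86. The difference was 0.7 (SE 0.17; 95% interval 0.31 to 1.08; adjusted p = 0.182 by limma). With limma's variance trend and robust estimation, set together, SERPINB1 passed, at an adjusted p of 0.0131, where 1.56% of all genes did. SERPINB5 was 0.61 higher with glycyrrhizin (SE 0.21, adjusted p = 0.337 by limma), against silymarin arrays at 8.29, 7.59 and 7.89. SERPINA10 read 3.88, 2.2 and 4.9 with glycyrrhizin and 5, 5.15 and 5.18 with silymarin (difference -1.45, SE 0.69, adjusted p = 0.527 by limma), and the difference was -0.72 without glycyrrhizin replicate 2.

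Silymarin and ursodeoxycholic acid differed for 0 of 47 members (limma; 0.0504% of all genes; with the variance trend setting 0 members and 0.115% of all genes) and for 5 by the unadjusted p (10.6%; 8.52% of all genes). That count was 3 without any 1 of control replicates 1 and 2, glycyrrhizin replicate 1, silymarin replicates 1 and 2 and ursodeoxycholic acid replicate 1, and 7 without control replicate 3 or ursodeoxycholic acid replicate 3. The arrays did not overlap for 7 members (14.9%; 14.7% of all genes). SERPINB2 was lower with silymarin (difference -2.67, SE 0.5; 95% interval -3.77 to -1.56; adjusted p = 0.201 by limma), and with an offset of 50 the difference was -1.33 and the adjusted p 0.0124 by limma. The difference was -1.93 without silymarin replicate 2 and -3.14 without silymarin replicate 1. F10 was 1.59 higher with silymarin (SE 0.52, adjusted p = 0.498 by limma), which was 0.93 without ursodeoxycholic acid replicate 1 and 2.27, adjusted p = 0.0494 by limma, without replicate 3. The shares of all genes that passed with the offset of 50 or without that replicate are not given here. F13B, at 5.14, 6.71 and 6.44 with silymarin, was lower than with the bile acid (difference -1.05, SE 0.43, adjusted p = 0.556 by limma; -0.57 without silymarin replicate 1). FGG and F7 were the remaining members under the unadjusted threshold, at 1.17 and -0.66. The FGG difference was 0.64 without ursodeoxycholic acid replicate 2 and 1.87 without replicate 3, and its dimmer probe gave -0.52, the opposite sign.

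Glycyrrhizin and ursodeoxycholic acid differed for 0 of 47 members (limma; 0% of all genes; with the variance trend setting 0 members and 0% of all genes) and for 4 by the unadjusted p (8.51%; 5.09% of all genes). That count was 3 without glycyrrhizin replicate 1, glycyrrhizin replicate 2 or ursodeoxycholic acid replicate 1, and 7 without ursodeoxycholic acid replicate 3. The arrays did not overlap for 5 members (10.6%; 11.6% of all genes). SERPINB2 was lower with glycyrrhizin (difference -1.86, SE 0.5; 95% interval -2.96 to -0.76; adjusted p = 0.854 by limma). F10 was 1.63 higher (SE 0.52, adjusted p = 0.854 by limma; 0.97 without ursodeoxycholic acid replicate 1). F9 was lower with glycyrrhizin than with the bile acid, whose arrays read 5.85, 6.74 and 6.43 (difference -1.87, SE 0.64, adjusted p = 0.854 by limma; -1.24 without glycyrrhizin replicate 2). F12 was 0.8 higher with glycyrrhizin (SE 0.32, adjusted p = 0.854 by limma; 0.47 without ursodeoxycholic acid replicate 1). A p that misses the threshold does not show that 2 agents act alike, and the interval for SERPINE2, the brightest member, was -0.44 to 0.52 in this pair.

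Other genes of the clotting and fibrinolysis pathway, none of them members, gave 0 of 27 past the adjusted threshold in any comparison with control, and 0 at an unadjusted p under 0.05. Of all genes, 0.0072% passed the adjusted threshold with glycyrrhizin and 0% in the other comparisons with control. At the unadjusted p stood 5.71% of all genes with glycyrrhizin, 5.24% with silymarin, 5.55% with ursodeoxycholic acid and 4.56% over the mean of the agents. No test compared the 27 genes with these shares. With glycyrrhizin 12 were higher and 15 lower, with silymarin 18 and 9, and with ursodeoxycholic acid 16 and 11. The 2 with the lowest p in each comparison were as follows. With glycyrrhizin the protease inhibitor TFPI2 differed by -0.54 (SE 0.28) and GGCX, the carboxylase that makes vitamin K-dependent factors active, by 1.06 (SE 0.61). GGCX was dim and its control arrays read 4.72, 3.32 and 2.09, so the difference was 0.42 without control replicate 3 and 1.74 without control replicate 1. With silymarin the thrombin receptor F2R differed by 0.38 (SE 0.21) and VKORC1L1, a vitamin K reductase, by 0.55 (SE 0.31), or 0.23 without control replicate 1. With ursodeoxycholic acid the plasma protein HRG differed by 0.6 (SE 0.3) and MCFD2, which helps carry F5 and F8 out of the endoplasmic reticulum, by 0.46 (SE 0.24), or 0.28 without control replicate 3. Over the mean of the agents, GGCX stood at 1.07 (SE 0.5) and the thrombin receptor cofactor F2RL2 at 0.48 (SE 0.3). Without control replicate 3 these were 0.43 and 0.22, and GGCX was 1.74 without control replicate 1.

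Proteases that serpins act on were measured for 13 of 20 listed genes, and 0 of 13 passed limma's adjusted threshold against control. At an unadjusted p under 0.05 stood 0 with glycyrrhizin, 1 with silymarin and 0 with ursodeoxycholic acid, where the shares of all genes were 5.71%, 5.24% and 5.55%. With glycyrrhizin 7 were higher and 6 lower, with silymarin 6 and 7, and with ursodeoxycholic acid 5 and 8. The brightest were FURIN, which cuts precursor proteins in the secretory route, at 11.16 and the lectin-pathway protease MASP1 at 10.58. Of 15 listed regulators that act on liver-made genes, 11 were measured and 0 passed limma's adjusted threshold, with 0, 1 and 2 under the unadjusted one in the same order, to be read against the same shares of all genes. CEBPB, a factor of the acute phase response, averaged 11.97, and among liver-enriched factors ONECUT1 averaged 9.9, above the upper quartile, FOXA1 7.63, FOXA2 7.03 and FOXA3 6.46. CEBPD read 7.22, 7.47 and 7.08 in control and 8.37, 8.3 and 7.58 with ursodeoxycholic acid (0.83, SE 0.25, adjusted p = 0.725 by limma). SOCS3, a feedback inhibitor of cytokine signalling, was 0.48 higher there (SE 0.2, adjusted p = 0.893 by limma). CEBPB was 0.59 higher with silymarin (SE 0.22, adjusted p = 0.912 by limma). By count the regulators were 5 higher and 6 lower with glycyrrhizin, 6 and 5 with silymarin, and 5 and 6 with ursodeoxycholic acid.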

How the data were processed

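The deposited intensities, 1 linear intensity per probe and array, came from 12 one-colour Cy5 arrays. The submitters' processing notes name limma without a version. Scanner, background correction and normalization steps are not stated there. The values ran from 1 to 65221 and came without detection calls, so dim probes may be background. Precision is limited by having 3 arrays a group. Of 27561 probes, 15650 had 1 gene symbol and 11911 had none and were left out. The symbols of 2355 probes were updated through RefSeq's gene table.

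Here the brightest probe of each of 13881 genes was fitted on the log2 scale (lmFit and eBayes of limma 3.58.1, R 4.3.3; 4 group means, 8 residual and 2.71 prior degrees of freedom). Tests were two-sided and adjusted by Benjamini-Hochberg over all genes at 0.05, in 7 comparisons. The same code was tested on simulated data. Members and lists were chosen with earlier results of these data known. In each comparison the text names the 3 members with the lowest p, all liver-made members by level, the 8 brightest and 5 dimmest members, and, against control, the 2 genes of the pathway list with the lowest p. Other members under an unadjusted p of 0.05, marker and regulator genes and array deviations were picked after their values were seen. Replicate numbers were not taken as pairs.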

Additional observations from a re-analysis of the deposited data

How the results depend on the processing

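The 29 named differences, over 17 genes, were recomputed under 25 alternatives, 12 of which left out 1 array, giving 704 values. Of these, 697 kept their direction and side of the threshold, 7 passed it where the main value had not, and 0 reversed. The named differences were picked for low p in these same data, so a kept direction was likely beforehand. All their genes but VKORC1L1 have 1 probe, so the choice of probe could not change them. Leaving out an array outside the groups compared could not change a difference either. The 5 members with probes of opposite sign were not among them. The count of members past the adjusted threshold was 0 in every comparison and alternative except the following. It was 1 for ursodeoxycholic acid against control with an offset of 50 (SERPINB2) and without ursodeoxycholic acid replicate 3 (F10), so between 0 and 1 over the arrays left out. It was 1 for glycyrrhizin against silymarin, SERPINB1 each time, with the dimmer 50% of probes left out, an offset of 50 and the variance trend with robust estimation, which were changed together. It was 1 for silymarin against ursodeoxycholic acid with an offset of 50 (SERPINB2) and without ursodeoxycholic acid replicate 3 (F10), again between 0 and 1 over the arrays left out. The cause was not tested. Apart from the variance trend setting, the shares of all genes that passed in these alternatives are not given here. The counts therefore do not show how the members stand against the background.

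With the replicate number as a block the count was 0 in all 7 comparisons. Same-numbered arrays correlated between -0.19 and 0.15 in their deviations from the group means (4 of 18 pairs over 0.1) and different-numbered ones between -0.23 and 0.27 (6 of 36). Whether same-numbered arrays were handled together was not tested. With the dimmer 50% of probes left out, 26 members remained. Of these, 1 stood under an unadjusted p of 0.05 with glycyrrhizin, 1 with silymarin and 2 with ursodeoxycholic acid. Over all 47 members the counts were 2, 4 and 7. The sets of genes differ, and the share of all remaining genes is not given here. These counts therefore do not show how the remaining members stand against the background. An offset of 50 gave smaller differences, -1.07 for F10 and -0.72 for F12 with ursodeoxycholic acid, -0.6 for F9 with glycyrrhizin and 0.42 for F8 with silymarin. The fit on all probes and the fit without the 2 arrays of lowest correlation were chosen after seeing the data, and both gave 0 members. The medians by role without 1 array were also added after seeing the data. Spread was widest for dim probes, which limits the members below the lower quartile, 11 of 47.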
